A study of Rattus norvegicus with 12 samples.

Results

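The genes described here are 8 mitophagy receptors and adaptors, Pink1, Bnip3, Bnip3l, Fundc1, Bcl2l13, Fkbp8, Phb2 and Sqstm1, chosen by their names. Each name matched 1 of the 30560 genes of a count table, and all 8 had enough counts to be tested. The table holds RNA sequencing libraries of the inner red gastrocnemius, a calf muscle, from wild-type male Wistar Kyoto rats aged 9 weeks. One group of 6 libraries was made from a frozen portion of whole muscle, which saw neither enzyme named next. The other portion stayed fresh. It gave the other 6 libraries, from the same 6 rats, which hold mitochondria captured with antibodies, then exposed to proteinase K, which digests protein, and RNase A, which digests RNA that is within its reach. Both groups were depleted of ribosomal RNA and started from 50 ng of muscle RNA or 10 ng of mitochondrial RNA. Freezing, capture, enzymes and RNA input thus differ between the groups throughout. Their effects cannot be told apart from those of location in mitochondria. By its labels the study asked about RNA within the mitochondria of muscle.

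Mitophagy is the removal of damaged or surplus mitochondria by autophagy, in which a membrane closes around the organelle and delivers it to the lysosome. One route marks the organelle with ubiquitin: the kinase PINK1 collects on the surface of damaged mitochondria and promotes their tagging with ubiquitin, and adaptors such as p62, the product of Sqstm1, join ubiquitin to LC3 proteins on the autophagic membrane. The other route uses receptors that sit in the mitochondrial membranes and bind LC3 proteins themselves, as BNIP3, NIX (Bnip3l), FUNDC1, BCL2L13, FKBP8 and prohibitin 2 (Phb2) do. In skeletal muscle, mitophagy takes part in the turnover of mitochondria with exercise, fasting and disuse. All 8 genes lie in the nuclear genome.

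Total counts were 24309444 to 32055355 in a muscle library and 720111 to 1785865 in a mitochondria library. Genes with a count numbered 16931 to 17776 in a muscle library and 27803 to 28708 in a mitochondria library, despite the lower totals there. Low counts were thus spread over more genes in mitochondria libraries, and the part of this spread in the members' counts was not tested. The mitochondrial genome took 26.4% to 35.9% of the first and 12.9% to 51.5% of the second, with 3 mitochondria libraries above and 2 below the muscle range. A member had 144 to 13422 counts in a muscle library and 5 to 74 in a mitochondria library, so counting error weighs far more on the mitochondria side. The marker genes of skeletal muscle fibres fell in 9 of 9 cases tested, with TMM and with total counts, from a summed level of 157392 to 222886 CPM (counts scaled to a library total of 1000000) in muscle to 1340 to 3438 CPM in mitochondria. Markers of macrophages and leukocytes went the other way, from 28.7 to 54.1 CPM to 228 to 393 CPM, and 3 of 5 rose with TMM scaling (which balances the groups on a trimmed and weighted mean of gene ratios) and 5 of 5 with total counts. Of all genes tested, 62.5% rose and 30.9% fell with TMM, and 84.3% rose and 9.03% fell with total counts. A rise of a marker, in this list or those below, is thus what most genes did. The sums were 272 to 469 CPM in muscle and 162 to 293 CPM in mitochondria for endothelial markers, 2244 to 7725 and 289 to 439 for fibroblasts, and 354 to 476 and 181 to 321 for smooth muscle and pericytes. In each of these 3 lists 5 of 5 markers fell with TMM, and with total counts 2, 4 and 3 fell while 1 fibroblast marker, Pdgfra, rose. Schwann cell markers summed to 29.8 to 120 and 63.1 to 126 CPM, with 2 of 5 falling under both scalings, 1 rising with TMM and 3 rising with total counts. Adipocyte markers summed to 84.5 to 148 and 70.0 to 142 CPM, which hides opposite changes under both scalings: Fabp4 fell from 109 to 9.81 CPM and the other 4 rose, Lep from 0.030 to 23.7, Plin1 from 0.567 to 29.03, Cidec from 0.252 to 29.3 and Adipoq from 0.755 to 11.8 (means). Blood markers summed to 3.05 to 5.92 and 20.7 to 40.5 CPM, and 2 of 3 rose with TMM, where Alas2 fell, and 3 of 3 with total counts. No marker had 0 counts over the mitochondria libraries, and 1 of the 3 blood markers in the table, Ppbp of platelets, was at 0 in muscle. Their part in the members' values was not tested. The mitochondria libraries hold captured mitochondria and not whole cells, so marker levels there do not measure numbers of cells. In whole muscle, fewer cells of a type and less RNA per cell cannot be told apart.

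Of the 8 genes, Pink1, Sqstm1, Bnip3 and Phb2 were lower in the mitochondria libraries in every animal and without overlap between the groups, and Pink1 fell furthest, 11.4-fold by mean CPM. Bcl2l13 was also lower, 1.48-fold. Bnip3l was 1.55-fold higher in mitochondria by CPM, while Fkbp8, 1.25-fold lower, and Fundc1, 1.01-fold lower, did not pass the test on that scale. With TMM scaling all 8 fell, against 30.9% of all genes tested. Without overlap 4 of the 8 members were lower, against 6.77% of all genes tested. Genes tested include some without a muscle count, which cannot fall, so these shares are not matched for level in muscle.

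Pink1 encodes the kinase that senses damaged mitochondria. In muscle its level was 408 CPM in the lowest library, 419 at the median and 436 in the highest, and in mitochondria 30.2, 36.3 and 45.8 CPM. Every mitochondria library lay below every muscle library, and the 6 muscle libraries were close together, with a coefficient of variation (CV) of 2.65% where counting alone gives 0.917%. The fall within an animal was between 9.12-fold and 13.9-fold. The gene is ENSRNOG00000015385 in the table and lies on chromosome 5. Its log2 fold change was -5.68 ± 0.14 with TMM (SE, edgeR adjusted p = 2.60e-25) and -3.53 ± 0.19 with total counts (edgeR adjusted p = 5.06e-30).

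Sqstm1 (ENSRNOG00000003147, chromosome 10) encodes p62, the adaptor that holds ubiquitin with one end and LC3 with another. It had 244 CPM in the lowest muscle library, 272 at the median and 296 in the highest, against 22.4, 35.1 and 50.7 CPM in mitochondria. Again no library of one group reached the range of the other. The fall was 5.83-fold to 12.4-fold within animals, and the log2 fold change was -5.15 ± 0.13 with TMM (SE, edgeR adjusted p = 2.33e-25) and -2.97 ± 0.19 with total counts (edgeR adjusted p = 1.84e-25).

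Promoters are shown for the 3 members that fell furthest, Pink1, Sqstm1 and Bnip3, as the 250 bases before the start of the gene that RefSeq gives in the assembly GRCr8 (the counts were made on mRatBN7.2). They are read 5′ to 3′ on the gene's strand, the minus strand for all 3, at chr5:155825951-155826200 for Pink1, chr10:35037751-35038000 for Sqstm1 and chr1:203154963-203155212 for Bnip3. Capitals mark matches, on either strand, to 5 motifs: ACGTG and GCGTG (the 2 forms of the core bound by hypoxia-inducible factors), CACGTG (an E-box, which contains ACGTG on both strands), TGACNNNGC (a core of the antioxidant response element) and GTAAACA (a FoxO core).
Pink1: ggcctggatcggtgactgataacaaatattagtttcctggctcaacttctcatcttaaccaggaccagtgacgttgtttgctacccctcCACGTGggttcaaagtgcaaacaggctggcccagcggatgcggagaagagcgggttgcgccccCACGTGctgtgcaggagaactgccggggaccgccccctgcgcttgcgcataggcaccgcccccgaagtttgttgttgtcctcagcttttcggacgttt
Sqstm1: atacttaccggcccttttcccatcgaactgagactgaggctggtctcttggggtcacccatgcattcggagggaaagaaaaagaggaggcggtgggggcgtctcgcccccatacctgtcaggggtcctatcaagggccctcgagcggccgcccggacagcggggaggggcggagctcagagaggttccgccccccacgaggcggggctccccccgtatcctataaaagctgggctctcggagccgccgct
Bnip3: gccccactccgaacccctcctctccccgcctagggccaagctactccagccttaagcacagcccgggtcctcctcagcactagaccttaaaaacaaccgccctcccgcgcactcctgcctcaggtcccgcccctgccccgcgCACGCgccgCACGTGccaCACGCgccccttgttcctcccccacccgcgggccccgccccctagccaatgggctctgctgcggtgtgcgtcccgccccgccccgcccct
Pink1 holds CACGTG at 2 places, which begin 161 and 98 bases before the start, and Bnip3 holds it once, 99 bases before the start, with GCGTG on the opposite strand 108 and 90 bases before it. Of 33469 promoters of this length, 5.59% hold CACGTG, 16.6% ACGTG and 25.9% GCGTG. Sqstm1 has none of the 5 motifs in this window, TGACNNNGC is in 10.1% of promoters, and GTAAACA is in 3.21%. The promoters of Bcl2l13, Fkbp8 and Phb2, which fell less, are not shown but also hold motifs of this list, though not the E-box. Fkbp8 and Phb2 hold the first hypoxia form, Bcl2l13 and Fkbp8 the second, and Bcl2l13 the antioxidant core. Pink1, Sqstm1 and Bnip3 hold 16, 19 and 23 cytosines followed by guanine, against a median of 5 over all promoters. The shares above were not matched for this. A link between motifs and falls was not tested. The motifs are matches of letters, and binding was not measured.

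Among the receptors that bind LC3 proteins directly, Bnip3 and Bnip3l lay furthest apart in their fold changes. They are paralogues with products of like structure in the outer membrane. Bnip3 (ENSRNOG00000017243, chromosome 1), a receptor known for its induction by hypoxia and fasting, had 126 CPM in the lowest muscle library, 154 at the median and 166 in the highest, against 18.6, 25.0 and 45.0 CPM in mitochondria. The groups did not overlap, and the fall within animals was 3.42-fold to 8.94-fold. The log2 fold change was -4.63 ± 0.13 with TMM (SE, edgeR adjusted p = 6.18e-24) and -2.47 ± 0.19 with total counts (edgeR adjusted p = 4.55e-21).

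Bnip3l (ENSRNOG00000009820, chromosome 15) encodes NIX, the receptor best known for clearing mitochondria from maturing red blood cells. It had 26.5 CPM in the lowest muscle library, 28.1 at the median and 30.3 in the highest, against 29.8, 45.3 and 51.8 CPM in mitochondria. Its level was higher in mitochondria in 6 of 6 animals, and 1 library, mitochondria replicate 5, lay within the muscle range. The sign of its fold change depended on the scaling: it was -1.54 ± 0.12 on the log2 scale with TMM (SE, edgeR adjusted p = 1.07e-13) and 0.62 ± 0.17 with total counts (edgeR adjusted p = 0.000598).

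The ratio of Bnip3l to Bnip3 counts within a library does not depend on scaling. In muscle it was 0.241, 0.185, 0.172, 0.166, 0.201 and 0.178 in replicates 1 to 6, and in the mitochondria of the same animals 2.18, 1.59, 1.15, 1.95, 1.13 and 2.14. The order of the pair was opposite in the groups, with more counts on Bnip3 in every muscle library and more on Bnip3l in every mitochondria library. The mean ratio was 0.191 ± 0.0273 over the 6 muscle libraries and 1.69 ± 0.475 over the 6 mitochondria libraries (SD). RefSeq lists 8 pseudogenes named after Bnip3 and 1 after Bnip3l, none of them named in the count table. How reads with several matches were counted is not stated in the notes, so reads of both genes may be split or lost, and their counts are uncertain to that extent.

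**Figure D1:**
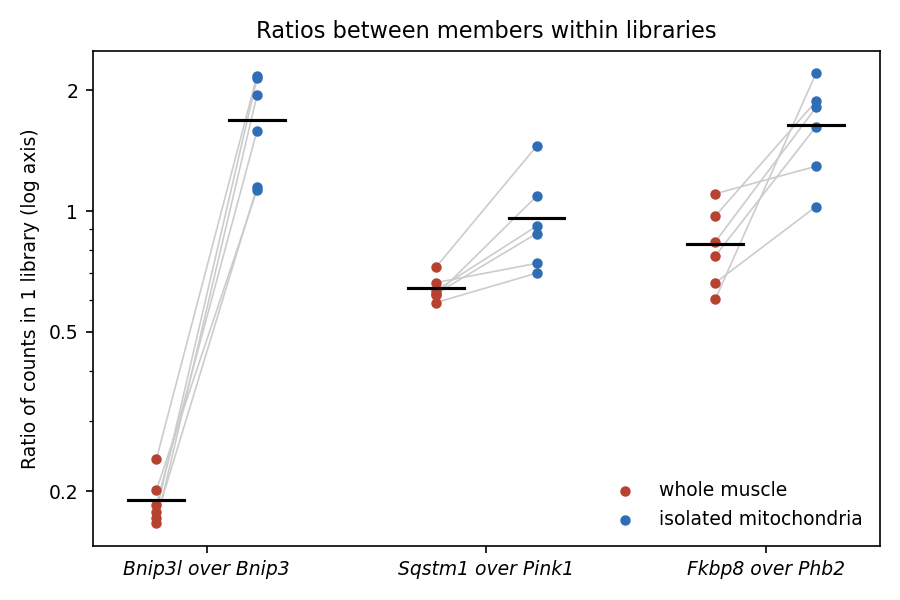
Ratios of the counts of 2 members within 1 library on a log axis. Each point is a library, grey lines join the muscle and the mitochondria of an animal, and black bars are means over 6 libraries; Bnip3l over Bnip3 is 0.166 to 0.241 in muscle and 1.13 to 2.18 in mitochondria, while the ranges of the other ratios overlap and each ratio is higher in mitochondria in 6 of 6 animals.

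Fundc1 (ENSRNOG00000003470, chromosome X), a receptor of the outer membrane that responds to low oxygen, had the fewest counts. Its level was 4.84 CPM in the lowest muscle library, 6.13 at the median and 8.99 in the highest, against 3.39, 6.03 and 10.1 CPM in mitochondria. The mitochondria range enclosed the muscle range, and the gene was lower in mitochondria in 3 of 6 animals. With 5 to 10 counts in a mitochondria library, its CV there was 36.6% where counting alone gives 37.6%. The log2 fold change was -2.22 ± 0.21 with TMM (SE, edgeR adjusted p = 3.09e-11), and -0.09 ± 0.30 with total counts, which did not pass the test (edgeR adjusted p = 0.782) and was 0.04 without muscle replicate 6 and 0.05 without mitochondria replicate 5.

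Bcl2l13 (ENSRNOG00000012394, chromosome 4), the mammalian receptor held to correspond to yeast Atg32, had 31.5 CPM in the lowest muscle library, 39.9 at the median and 43.0 in the highest, against 17.6, 24.8 and 34.9 CPM in mitochondria. It was lower in mitochondria in 6 of 6 animals, by 1.005-fold to 2.29-fold, although the ranges overlapped. The log2 fold change was -2.77 ± 0.13 with TMM (SE, edgeR adjusted p = 8.89e-19) and -0.61 ± 0.18 with total counts (edgeR adjusted p = 0.00147).

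Fkbp8 (ENSRNOG00000058359, chromosome 16) encodes an anchored immunophilin that recruits LC3A. It had 33.5 CPM in the lowest muscle library, 41.6 at the median and 54.9 in the highest, against 26.3, 28.5 and 59.7 CPM in mitochondria. The highest mitochondria library, replicate 3, lay above all muscle libraries and the other 5 below all of them. The log2 fold change was -2.52 ± 0.14 with TMM (SE, edgeR adjusted p = 1.19e-16), and -0.36 ± 0.19 with total counts, which did not pass the test (edgeR adjusted p = 0.0582). Without that library it was -0.58 ± 0.17 with total counts (edgeR adjusted p = 0.00179), and it also passed without muscle replicate 2 (-0.42, edgeR adjusted p = 0.0379) and without muscle replicate 3 (-0.41, edgeR adjusted p = 0.0421).

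Phb2 (ENSRNOG00000012999, chromosome 4) encodes prohibitin 2, a scaffold of the inner membrane that is exposed to LC3 when the outer membrane ruptures. It had 47.6 CPM in the lowest muscle library, 50.8 at the median and 58.3 in the highest, against 14.0, 20.8 and 27.0 CPM in mitochondria. The groups did not overlap, and the fall within animals was 1.97-fold to 3.40-fold. The log2 fold change was -3.51 ± 0.12 with TMM (SE, edgeR adjusted p = 5.45e-22) and -1.35 ± 0.19 with total counts (edgeR adjusted p = 4.25e-10). RefSeq lists 3 pseudogenes named after Phb2, 1 each after Bcl2l13 and Sqstm1, and none after Pink1, Fkbp8 or Fundc1.

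**Figure D2:**
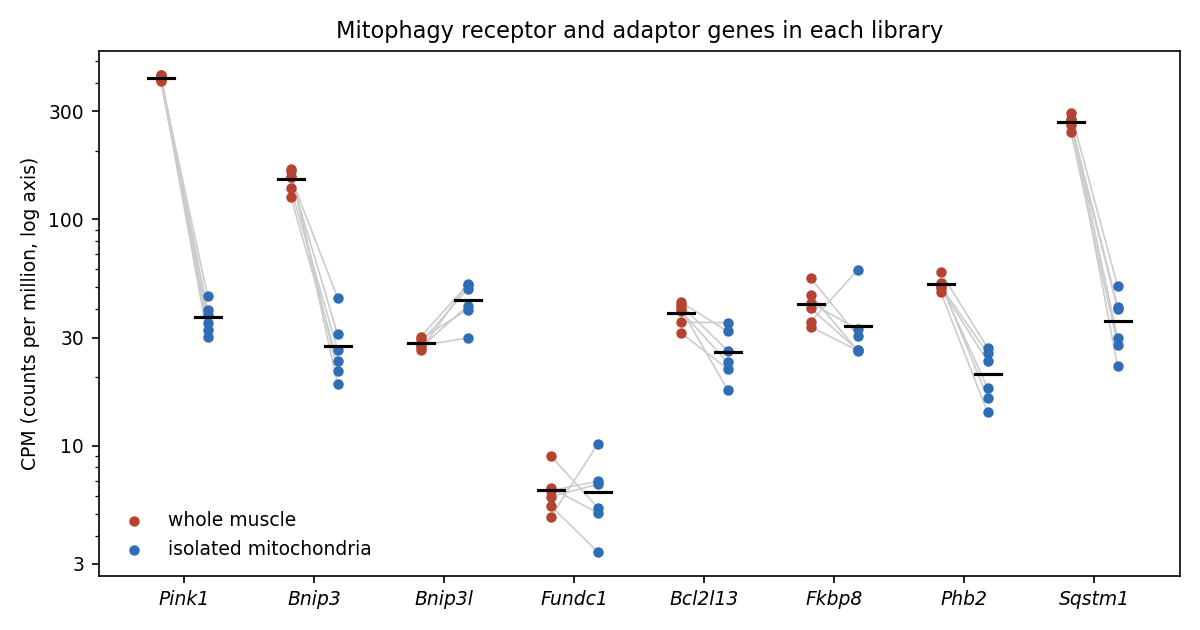
Level of each member in CPM, on a log axis. Each point is a library, grey lines join the muscle and the mitochondria of an animal and black bars are means over 6 libraries; Pink1, Bnip3, Phb2 and Sqstm1 do not overlap between groups, and the means run from 6.33 to 422 CPM in muscle and from 6.26 to 43.9 CPM in mitochondria.

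The fits rest on edgeR's quasi-likelihood test across 24679 genes with an adjusted p threshold of 0.05. TMM (trimmed mean of M values) gave factors of 0.452 to 0.496 to muscle libraries and 1.57 to 2.80 to mitochondria libraries, so each member's log2 fold change was 2.14 to 2.18 higher with total counts, the scale of the CPM values. With TMM all 8 members were lower, against 30.9% of all genes, and 62.5% of all genes were higher. With total counts 5 members were lower and 1 was higher, against 9.03% and 84.3% of all genes. The members' median log2 fold change was -3.14 with TMM and -0.98 with total counts, and that of all genes tested was 2.45 and 4.61. TMM takes most genes as unchanged between groups, but most genes tested were called here. The size of the TMM fold changes, and calls that hold only with such factors, are uncertain to that extent.

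All members lay below the median of all genes under both scalings, Bnip3l included. The genes tested include some without a muscle count, which cannot fall, while every member had at least 144 counts in each muscle library. This median and the shares below are not matched for level in muscle. They do not set the members apart from other genes with muscle counts. With TMM, 0.827% of all genes tested had a lower log2 fold change than Pink1, 1.30% than Sqstm1, 1.89% than Bnip3, 4.46% than Phb2, 7.83% than Bcl2l13, 9.35% than Fkbp8, 11.6% than Fundc1 and 17.8% than Bnip3l. With the counts of the mitochondrial genome as library size, where 4.40% of 24316 nuclear genes were lower and 80.7% higher, 3 members were lower, Pink1 at -3.28 (edgeR adjusted p = 2.47e-09), Sqstm1 at -2.55 (1.71e-06) and Bnip3 at -2.05 (0.000107). Bnip3l, at 0.94, was then not called (edgeR adjusted p = 0.0720), nor were Phb2, Bcl2l13, Fkbp8 and Fundc1.

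**Figure D3:**
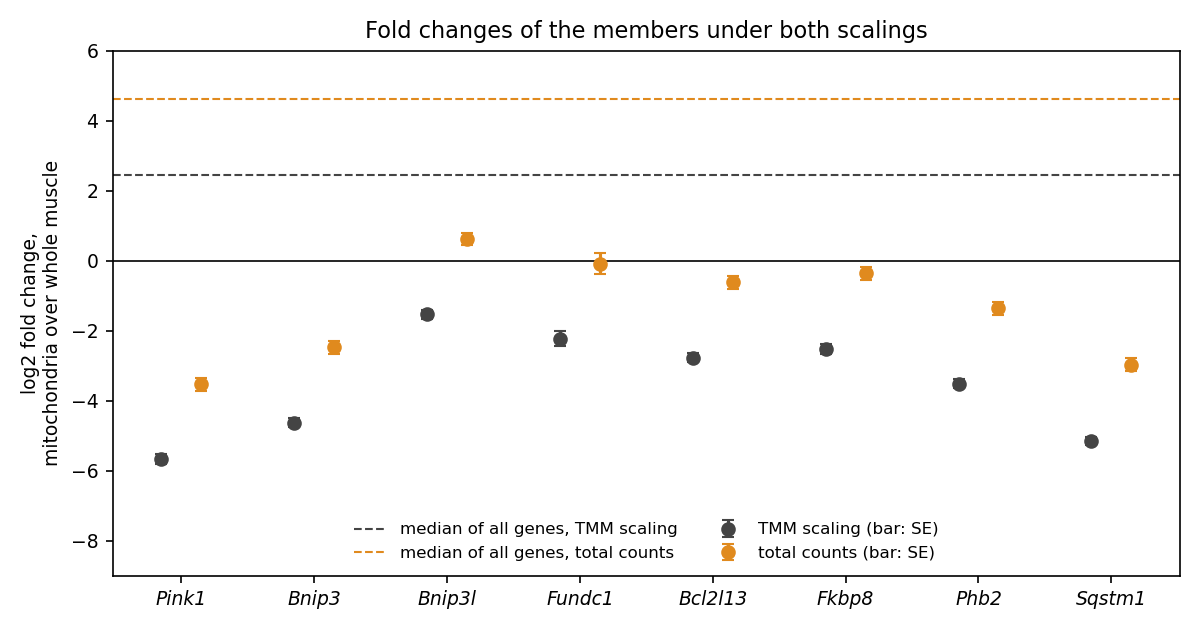
Log2 fold change of each member, mitochondria over whole muscle, with TMM scaling (grey) and with total counts (orange), from edgeR with 6 libraries a group; bars are SE and dashed lines the medians over all genes tested. All members lie below 0 with TMM, and with total counts Bnip3l lies above 0 at 0.62 and Fundc1 close to 0 at -0.09.

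In the mitochondria libraries the 8 genes were much closer to each other than in muscle. Between the lowest and the highest mean there were 66.6-fold in muscle, from Fundc1 to Pink1, and 7.02-fold in mitochondria, from Fundc1 to Bnip3l. These are levels in CPM, not corrected for transcript length, so the genes are not ranked by expression here. For reference, 10014 nuclear genes were without a single count in muscle, and their median was 3.73 CPM in the mitochondria libraries, with quartiles of 1.32 and 8.82 and a 95th percentile of 23.6. Fundc1, at 6.26 ± 2.29 CPM, lay within those quartiles and Phb2, at 20.7 ± 5.38, below that 95th percentile, while the other 6 members, at 26.0 to 43.9 CPM, lay above it. Of the genes without a muscle count, 3.87% were at or above the level of Bcl2l13 and 0.819% at or above that of Bnip3l. Some such genes thus reached the level of every member. This comparison too was not corrected for transcript length. Whether a member exceeds such genes of like length was not tested.

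Summed, the members took 1009 ± 13.7 CPM of a muscle library and 230.5 ± 50.9 CPM of a mitochondria library (SD over 6 libraries). For 7 of the 8 genes the share of that sum did not overlap between groups, and the exception was Bnip3, whose share was 14.9% ± 1.48 in muscle and 11.9% ± 2.38 in mitochondria, lower in 5 of 6 animals. Pink1 went from 41.8% ± 1.08 of the counts on the 8 genes to 16.4% ± 2.92 and Sqstm1 from 26.8% ± 1.48 to 15.2% ± 1.82. The other 5 had larger shares in mitochondria, Bnip3l from 2.80% ± 0.181 to 19.2% ± 2.44, Fkbp8 from 4.19% ± 0.823 to 14.4% ± 2.90, Bcl2l13 from 3.82% ± 0.468 to 11.2% ± 1.00, Phb2 from 5.11% ± 0.352 to 8.95% ± 0.929 and Fundc1 from 0.629% ± 0.148 to 2.65% ± 0.446. Phb2 shows how a share and a level can part, since its share was larger while its CPM was lower. The ratio of Sqstm1 to Pink1 counts, the members with the most muscle counts, was 0.642 ± 0.0468 in muscle and 0.963 ± 0.277 in mitochondria, and that of Fkbp8 to Phb2 was 0.826 ± 0.189 and 1.64 ± 0.426. The ranges of both ratios overlapped between groups, but each was higher in mitochondria in 6 of 6 animals.

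**Figure D4:**
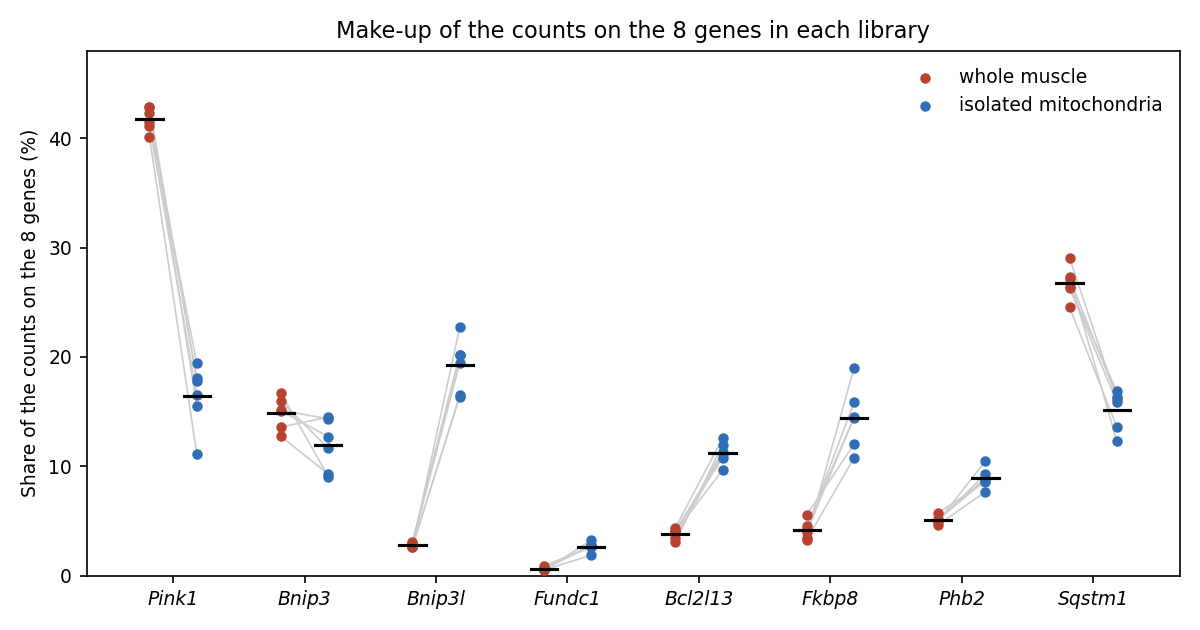
Share of each member in the counts on the 8 genes, in percent. Each point is a library, grey lines join the muscle and the mitochondria of an animal and black bars are means over 6 libraries; Pink1 and Sqstm1 take a smaller share in mitochondria, 5 genes a larger one, and Bnip3 overlaps.

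The members also differed in how steady they were across animals. In muscle the CV ran from 2.65% for Pink1 to 22.7% for Fundc1, and Fkbp8 had 18.6%, where counting alone gives 2.93%. Muscle replicate 1 was the highest for Fkbp8, Bnip3l and Bcl2l13 and the lowest for Bnip3. In mitochondria the CVs lay between 15.2% for Pink1 and 38.7% for Fkbp8. Scaled to nuclear counts, which leaves out the share of the mitochondrial genome that differed among these libraries, they lay between 9.27% for Sqstm1 and 24.4% for Fkbp8 and were smaller for 7 of the 8 genes, Pink1 being the exception at 17.9%. Counting alone gives 13.9% to 37.6% there, and the CV of the CPM was above its counting value for 7 of the 8 genes, with 34.4% against 17.9% for Bnip3, 38.7% against 16.2% for Fkbp8 and 29.5% against 15.5% for Sqstm1. Scaled to nuclear counts, 4 of the 8 were above it.

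Other genes of the pathway were taken from a list of 69, of which 66 were tested and 3 (Rhot1, Calcoco2 and Atg4a) were not analysed here. Levels are mean ± SD over 6 libraries. With TMM 58 fell, 4 rose and 4 did not pass, and the median log2 fold change was -1.86. With total counts 21 fell, 33 rose and 12 did not pass, and the median was 0.31. Of all genes tested, 30.9% fell and 62.5% rose with TMM, and 9.03% fell and 84.3% rose with total counts. The counts by role below are to be read beside these shares. The sign of the log2 fold change differed between the scalings for 33 of the 66 genes. Both medians lay between those of the 8 members and those of all genes tested.

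In the PINK1 and ubiquitin axis, 8 of 9 genes fell with TMM and 1 rose, and 4 fell and 5 rose with total counts. Vcp, an unfolding ATPase that draws ubiquitinated proteins out of membranes, went from 233 ± 8.66 to 31.1 ± 10.7 CPM (log2 fold change -5.13 with TMM, edgeR adjusted p = 1.15e-24). Usp15, a deubiquitinase, went from 108 ± 7.68 to 31.7 ± 4.93 CPM, and Mul1, a ubiquitin ligase of the outer membrane, from 45.1 ± 4.18 to 32.4 ± 10.3 CPM. The gene that rose with TMM was Usp30, the deubiquitinase anchored in the outer membrane, from 5.79 ± 0.755 to 42.6 ± 9.45 CPM (0.69 with TMM and 2.85 with total counts, edgeR adjusted p = 2.04e-05 and 1.11e-23). Both fold changes lay below the medians of all genes tested, 2.45 and 4.61.

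Of 13 other receptors and genes that control receptors, 11 fell and 2 rose with TMM, and 6 fell and 6 rose with total counts. The NIPSNAP pair, matrix proteins that mark damaged mitochondria for autophagy, went in opposite directions under both scalings. Nipsnap2 fell from 349 ± 37.8 to 24.8 ± 8.69 CPM (-6.06 with TMM and -3.88 with total counts, edgeR adjusted p = 2.45e-25 and 2.88e-30), and Nipsnap1 rose from 1.22 ± 0.241 to 42.1 ± 11.7 CPM (2.92 and 5.09, edgeR adjusted p = 1.19e-15 and 5.85e-34). Pptc7, a mitochondrial phosphatase that restrains BNIP3 and NIX, went from 189 ± 17.3 to 35.9 ± 8.69 CPM and Csnk2a1, a catalytic subunit of casein kinase 2, which phosphorylates FUNDC1, from 92.1 ± 9.69 to 30.2 ± 12.0 CPM. Src, a kinase that also acts on FUNDC1, rose from 6.98 ± 1.56 to 51.4 ± 13.0 CPM (0.71 with TMM and 2.86 with total counts). The median of all genes tested was 2.45 with TMM and 4.61 with total counts. Nipsnap1 was near these medians and Src below both, so neither rise stood out from genes at large.

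All 6 other adaptors fell with TMM, while 2 fell and 3 rose with total counts. Optn, the ubiquitin-binding adaptor optineurin, went from 151 ± 10.7 to 45.4 ± 8.73 CPM (-3.91 with TMM, edgeR adjusted p = 3.15e-23, and -1.75 with total counts). Nbr1, a relative of p62, had 63.0 ± 3.96 and 56.4 ± 23.2 CPM and fell with TMM at -2.41 but did not pass with total counts (edgeR adjusted p = 0.278). Wdfy3, a large scaffold of selective autophagy, had 106 ± 6.63 and 171 ± 39.4 CPM and changed sign, from -1.51 with TMM to 0.68 with total counts.

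All 5 genes of the LC3 and GABARAP family, the partners that receptors and adaptors bind on the autophagic membrane, fell with TMM, and 4 fell and 1 rose with total counts. Map1lc3a went from 65.3 ± 5.37 to 10.6 ± 2.65 CPM (-4.82 with TMM, edgeR adjusted p = 4.38e-24, and -2.68 with total counts), Gabarap from 47.7 ± 3.77 to 12.6 ± 4.39 and Gabarapl1 from 35.3 ± 4.59 to 21.4 ± 3.54.

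Of 23 genes of autophagosome formation, 18 fell, 1 rose and 4 did not pass with TMM. With total counts 2 fell and 17 rose, and the median was 0.91 against -1.24 with TMM. These are 8.70% and 73.9% of the role, near the 9.03% and 84.3% of all genes tested. The 2 that fell under both were Atg9a, a lipid scramblase of membrane vesicles, from 85.1 ± 15.8 to 41.9 ± 13.2 CPM, and Rb1cc1, the FIP200 scaffold of the ULK1 complex, from 59.1 ± 10.2 to 32.9 ± 6.11 CPM. Atg2a, a lipid transfer protein, had 42.4 ± 6.24 and 78.0 ± 15.2 CPM and changed sign between scalings, from -1.29 to 0.87. Atg7, the enzyme that activates LC3 for conjugation, rose under both, from 7.24 ± 1.57 to 52.5 ± 11.9 CPM (0.69 and 2.85). Its rise was smaller than the medians of all genes tested, 2.45 and 4.61.

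All 10 regulators fell with TMM, and 3 fell and 1 rose with total counts. Prkaa2, a catalytic subunit of AMPK, which activates ULK1, went from 177 ± 22.3 to 28.5 ± 7.15 CPM (-4.84 with TMM, edgeR adjusted p = 5.77e-24, and -2.67 with total counts). Keap1, a partner of p62, went from 55.9 ± 2.88 to 30.4 ± 13.1 CPM. Mtor, the kinase that restrains autophagy, had 72.9 ± 3.98 and 132 ± 37.0 CPM, with -1.35 with TMM and 0.84 with total counts.

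**Figure D5:**
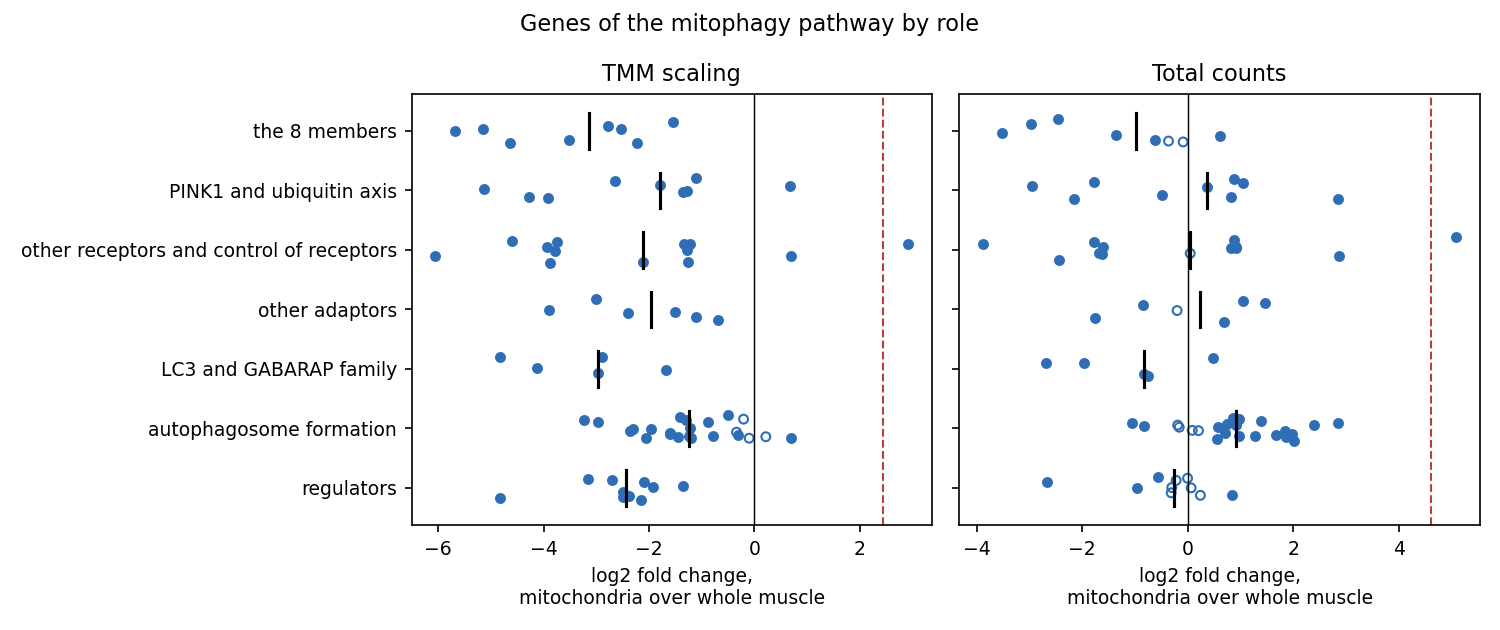
Log2 fold change, mitochondria over whole muscle, of the 8 members and of 66 other genes of the pathway by role, with TMM scaling (left) and total counts (right). Each point is a gene, filled where the edgeR adjusted p is under 0.05, black bars are medians of a role and the dashed red line is the median of all genes tested, 2.45 and 4.61.

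The pattern over the 12 libraries was compared with that of 6382 nuclear genes outside the lists with a proper name and at least 10 CPM in muscle. The libraries fall into 2 groups, so a high correlation follows for any gene with a like difference between groups, and the values are a description. The nearest genes to Pink1 were Gnas and Adssl1 (Pearson r = 0.9987 and 0.9986, n = 12). An r above 0.99 was reached by 121 genes (1.90%) with Pink1, 142 (2.23%) with Sqstm1, 5 with Bnip3 and 1 with Phb2. It was reached by 0 genes with the other members. Sqstm1 was nearest to Ogdh (0.9989) and Fem1a, Bnip3 to Fndc5 (0.9956) and Idh3b, Phb2 to Eif3a (0.9949) and Dyrk1a, Bnip3l to Mecr (0.981) and Ikbkg, Bcl2l13 to Serpine2 (0.970) and Rragd, Fkbp8 to Agpat1 (0.937) and Vti1b, and Fundc1 to Rftn1 (0.868) and Klf15.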

How the data were processed

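RNA was sequenced from whole muscle and from isolated mitochondria of 6 rats, 6 libraries each, grouped by their titles. The deposited values are raw counts of reads on each gene, in 1 table. Per the submitters' processing notes, FastQC 0.74, cutadapt 4.6, STAR 2.7.11a, HTSeq and the build mRatBN7.2 were used; the strand setting, multiple matches and annotation release are not stated there. CPM are counts scaled to the library's total, with mean ± SD; gene lengths were not used, so levels are not ranked between genes. Genes were tested with edgeR 4.0.16 in R 4.3.3 (filterByExpr with a minimum count of 10, TMM over all genes, group as the only term, glmQLFTest, Benjamini-Hochberg over all genes tested); SE was derived from the fold change and the square root of F. The fit was tried on simulated data in which both groups shared the same profile apart from a small set of changed genes. Over 26868 genes it recovered 80% to 100% of changes of 2-fold to 4-fold, with 10 false calls. The simulation had no broad difference between groups like the one in these data, so it cannot judge the scaling. Alternatives were total counts, RLE factors, nuclear counts, mitochondrial genome counts, DESeq2 1.42.0, no filter, the animal as a block, each library left out and, chosen after seeing the data, total counts with the block or with each library left out.

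Muscle and mitochondria of a replicate number carry the same animal number in the labels and so are paired; deviations from the group means correlated between them at -0.0103 to 0.0202 over the genes tested, and 2 of 6 muscle libraries correlated best with their own mitochondria. One listed item is not reported here. The members and lists were chosen with earlier results of these data known. Beside all members, the text names the 3 genes with the most muscle counts of each role, those called against the majority of their role (at most 3), and the 2 genes nearest to each member by Pearson correlation of log2 CPM with a prior count of 2; the ratios were picked out after their values were seen. Promoters are from RefSeq, GRCr8, which held 6 of the 8 members.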

Additional observations from a re-analysis of the deposited data

Results flagged for a closer look

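Fkbp8 in mitochondria replicate 3 had 59.7 CPM, far from the other 5 mitochondria libraries at 26.3 to 32.6 CPM. The gap was 0.811 of the whole range, above Dixon's limit of 0.625 for 6 libraries. The value rests on 53 counts. Scaled to nuclear counts it was 68.5, against 37.0 to 57.6 in the others. The library also had the lowest share of mitochondrial genome counts, 12.9%. Its part in the value was not tested. Chance flags about 1 in 20 groups, and 38 groups were checked, with this 1 beyond the limit.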

How the results depend on the processing

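Scaling to total, nuclear or mitochondrial genome counts changed calls. Against 8 members lower and 0 higher with TMM, 5 were lower and 1 higher with total counts, with or without the replicate block, 6 and 1 with nuclear counts, and 3 and 0 with mitochondrial genome counts. RLE factors, DESeq2 and no filter gave 8 lower, as did TMM with the replicate block, which changed no call of a member, and each library left out. Bnip3l turned to 0.62 with total counts, 0.61 with the block added, 0.68 with nuclear counts and 0.94 with mitochondrial genome counts, where Fundc1 turned to 0.23 and Fkbp8 to 0.0662. Of the pathway genes, 58 lower and 4 higher became 21 and 33 with total counts (21 and 32 with the block), 22 and 33 with nuclear counts and 13 and 29 with mitochondrial genome counts. Under these 4 settings Wdfy3 turned to 0.68, 0.66, 0.70 and 1.08, Atg2a to 0.87, 0.88, 0.92 and 1.22, and Mtor to 0.84, 0.82, 0.86 and 1.28; Nbr1 turned to 0.32 with mitochondrial genome counts. The replicate block with TMM gave 59 lower and 4 higher and changed no other call printed here. Over all genes, 7630 lower with TMM became 2228, 2211 with the block, 2291 and 1071. The cause was not tested.

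Scaled to nuclear counts, mean CPM in muscle and in mitochondria was 623 and 56.5 for Pink1, 223 and 41.1 for Bnip3, 41.7 and 66.6 for Bnip3l, 9.39 and 9.23 for Fundc1, 56.7 and 38.9 for Bcl2l13, 62.1 and 50.1 for Fkbp8, 76.3 and 30.8 for Phb2 and 399.7 and 52.1 for Sqstm1. With TMM, leaving out single libraries changed no call or direction of a member, and log2 fold changes ran from -5.75 to -5.60 for Pink1 and from -1.63 to -1.47 for Bnip3l. With total counts, chosen after seeing the data, 5 to 6 members were lower and 1 higher with each library left out, and Bnip3l ran from 0.56 to 0.71, Fkbp8 from -0.58 to -0.27 and Fundc1 from -0.24 to 0.0496. Depth limits the mitochondria side, where a member rests on 5 to 74 counts a library. The labels used here give no batch.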
